A study of Mus musculus with 27 samples.

Results

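The cell cycle and checkpoint genes described here are 48 mouse genes listed by name, by a rule that uses no measured value: the cyclins, cyclin-dependent kinases (CDKs) and CDK inhibitors, the retinoblastoma (RB) and E2F families, p53 (Trp53) and Mdm2, and the machinery of DNA replication and mitosis. All 48 were found, each under 1 Ensembl gene identifier, among the 22524 genes of the count tables. Poly(A) RNA was sequenced from 27 libraries. Of these, 18 came from 9 small intestinal epithelial organoid cultures, each grown from the distal jejunum of 1 wild-type C57BL/6 male mouse of 8 to 12 weeks and sampled at passage 5 to 8. Organoids Z908, Z909 and Z910 came from littermates of the specific-pathogen-free (SPF) facility SR, Z911, Z912 and Z913 from littermates of the SPF facility SE, and Z917, Z918 and Z919 from germ-free (GF) littermates. A further 6 libraries came from 3 replicates (M1 to M3) of m-ICc12, a mouse line of immortalised epithelial cells from the small intestine, and 3 from mouse embryonic fibroblasts (MEF, R1 to R3). Organoid and m-ICc12 cultures were each sequenced in a pair of libraries, of which 1 is labelled untreated and the other TNF (5 ng/ml tumour necrosis factor for 8 h), and the MEF were untreated. The m-ICc12 line is 1 clone from mice that expressed the SV40 large T antigen, a viral protein known to bind RB and p53, in their epithelium. The study describes the MEF as primary cells of C57BL/6 mice.

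Total counts ran from 6071103 to 43843615 per library, with a median of 30339856. The treatment labels have to be read with care, because the labels and the names of the deposited count tables gave opposite treatments in all 12 pairs of libraries. Groups follow the labels. 5 genes that TNF is known to induce (Nfkbia, Nfkb2, Tnfaip3, Relb and C3) were lower under the TNF label in 12 of 12 pairs, for example with an organoid mean of 31.1 against 197 CPM (TMM-normalised counts scaled to a common library size) for Nfkbia. All treatment results therefore refer to "the libraries labelled TNF", and an exchange of the labels would only turn the sign. For the comparisons of cell types and facilities both libraries of a culture were summed, so these do not rest on the label. The organoids carried epithelial markers (summed level of 7 genes 6270 to 7390 CPM) and markers of stem, Paneth, goblet and enteroendocrine cells and enterocytes. m-ICc12 kept Krt8 (1310 to 1520 CPM), but Epcam (6.85, 4.66 and 2.52 CPM) and Cdh1 (2.52, 1.86 and 1.07 CPM) were near background, and Csf1r, a macrophage receptor, stood at 111, 102 and 81.3 CPM. In the MEF, Col1a1 was at 1770 to 2360 CPM, while the fibroblast markers Thy1 and Lum were listed at 0. In the m-ICc12 M1 library labelled TNF, also the one with the fewest counts, the gene Lars2 took 13.46% of all counts.

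As background, a cell enters the cycle when D-type cyclins activate Cdk4 and Cdk6, which phosphorylate RB and release E2F transcription factors. E2F factors switch on cyclin E, the Mcm2-7 helicase and the enzymes of DNA synthesis, and a later wave of genes, among them Cdk1, the B-type cyclins and the Aurora kinases, carries the cell through mitosis. CDK inhibitors and p53, itself held low by the ubiquitin ligase Mdm2, brake the cycle. In the intestinal epithelium, crypt base stem cells and their transit-amplifying daughters divide, and the differentiated cells of the villus do not.

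The promoters of the members were taken from RefSeq (GRCm38.p6, 250 bases before to 50 bases after each annotated start), which held 45 promoters of 39 of the 48 members. These sequences were read on both strands for 3 short elements known from cell cycle promoters. The first was the CCAAT box, named for its letters and bound by the factor NF-Y. The second was the cell cycle homology region or CHR, spelled TTTGAA and known from genes of the mitotic wave. The third was an E2F site, for which either TTCCCGC was taken, one of the usual forms, or the closely related form TTGGCGC. Read on the other strand, a CCAAT box can share bases with an E2F site of the second form. 5 promoters are shown, each on its coding strand and covering the 250 bases up to the start, because the results turn on these genes: Cdk1 as the mitotic kinase (chr10:69352913-69353162), Mcm6 as a helicase subunit (chr1:128359706-128359955), and the neighbouring inhibitor genes Cdkn2a, with its 2 starts (chr4:89282193-89282442 for the p16 transcript and chr4:89294620-89294869 for the Arf transcript), and Cdkn2b (chr4:89311033-89311282). All lie on the minus strand of the build. Capitals mark the elements found.
Cdk1: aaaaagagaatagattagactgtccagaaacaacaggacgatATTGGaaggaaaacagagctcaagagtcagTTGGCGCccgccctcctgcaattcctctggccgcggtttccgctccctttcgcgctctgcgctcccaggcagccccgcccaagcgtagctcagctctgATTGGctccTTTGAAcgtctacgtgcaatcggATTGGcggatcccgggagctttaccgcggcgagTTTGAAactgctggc
Mcm6: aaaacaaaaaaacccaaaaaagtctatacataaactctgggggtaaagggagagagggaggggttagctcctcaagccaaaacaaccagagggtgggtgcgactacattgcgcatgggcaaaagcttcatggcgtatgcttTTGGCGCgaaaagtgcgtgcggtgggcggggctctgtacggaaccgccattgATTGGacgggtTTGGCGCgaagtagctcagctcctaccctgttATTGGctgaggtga
Cdkn2a, p16 start: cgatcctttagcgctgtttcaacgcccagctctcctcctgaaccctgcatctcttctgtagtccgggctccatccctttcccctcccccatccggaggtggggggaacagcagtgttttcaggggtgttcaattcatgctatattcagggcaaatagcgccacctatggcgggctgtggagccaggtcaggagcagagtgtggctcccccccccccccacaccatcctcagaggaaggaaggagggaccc
Cdkn2a, Arf start: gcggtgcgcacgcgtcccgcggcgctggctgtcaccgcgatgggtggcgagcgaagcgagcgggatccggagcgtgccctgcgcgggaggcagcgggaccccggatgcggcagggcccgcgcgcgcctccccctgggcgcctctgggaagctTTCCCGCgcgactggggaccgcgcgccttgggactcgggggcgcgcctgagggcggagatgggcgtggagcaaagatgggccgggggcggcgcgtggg
Cdkn2b: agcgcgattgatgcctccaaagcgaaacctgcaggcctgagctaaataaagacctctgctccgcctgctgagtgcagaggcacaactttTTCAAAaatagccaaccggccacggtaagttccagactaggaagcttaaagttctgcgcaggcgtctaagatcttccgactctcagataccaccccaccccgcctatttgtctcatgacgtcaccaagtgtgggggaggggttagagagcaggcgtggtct

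Cdk1 held 3 CCAAT boxes, 2 CHR elements and 1 E2F site in these bases, and Mcm6 held 2 CCAAT boxes and 2 E2F sites. The Arf start of Cdkn2a had 1 E2F site, Cdkn2b had 1 CHR element, and the p16 start had none of the 3. Over the whole 300-base windows, a CCAAT box was present in 66.7% of the member promoters against 37.4% of all 32851 mouse promoters in the table, a CHR in 28.9% against 17.9%, and an E2F site in 35.6% against 6.81%. For the CHR, the 95% exact binomial interval of the members (16.4 to 44.3%) holds the share of all promoters. By role, the E2F site was found in 87.5% of the 8 licensing promoters and in 25.0% of the 12 mitotic promoters, whereas the CHR was found in 12.5% of the licensing and 75.0% of the mitotic promoters. In the 250 bases before the start alone, the CHR was found in 20.0% of member promoters against 16% of all promoters and in 41.7% of the mitotic promoters, and the E2F site in 28.9% against 5.62% and in 62.5% of the licensing promoters. These are matches of letters and not bound sites.

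**Figure D1:**
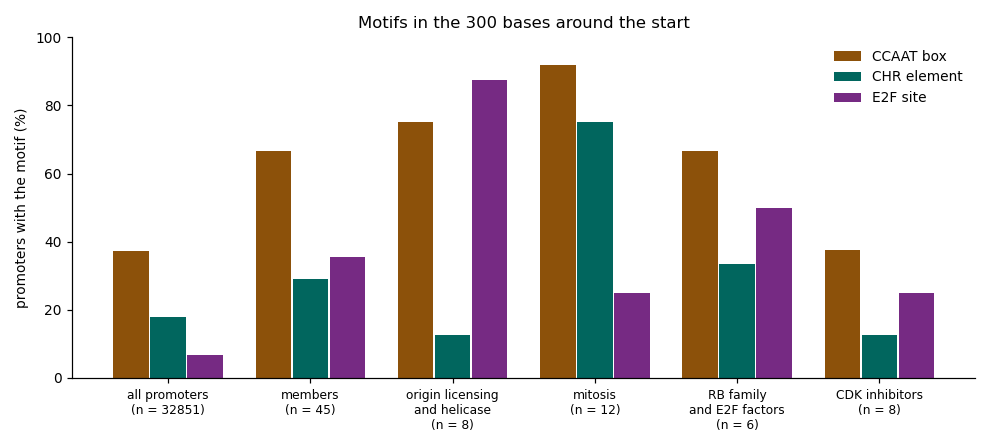
Share of promoters (percent) that hold a CCAAT box, a CHR element or an E2F site, for all mouse promoters in the table and for the member promoters by role. E2F sites stand out in the licensing group (87.5% of promoters, all mouse promoters 6.81%) and CHR elements in the mitotic group (75.0%, all mouse promoters 17.9%), over the whole 300 bases.

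The first question was how the cell cycle genes of primary organoids compare with those of the immortalised epithelial line. Organoid and m-ICc12 cultures differed in their D-type cyclins. Per kilobase, Ccnd2 had the highest mean of the 3 in organoids, with Ccnd1 not far below. In m-ICc12, Ccnd2 was the lowest and Ccnd1 the highest. The inhibitor Cdkn2b and the activator E2f2 were higher in organoids, and Cdkn1a, Mdm2 and Rrm2 were higher in m-ICc12. Of the 47 members above background, 15 (31.9%) were higher in organoids (36.6% of all genes tested) and 18 (38.3%) were lower (34.0% of all genes), at an adjusted p under 0.05 in edgeR's quasi-likelihood test on 9 against 3 cultures. Both shares lie near those of all genes, and the median log2 fold change of the members was -0.10 against 0.04 over all genes. Without m-ICc12 replicate 2, 9 members instead of 15 were higher, and with library totals in place of TMM the higher ones were 35.3% of the members called instead of 45.5%. Where samples of m-ICc12 or MEF are compared, p-values measure the spread between samples that are not stated to be separate cultures, and in bulk RNA fewer cycling cells and less RNA per cell cannot be told apart.

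Fibroblasts served as the non-epithelial reference. Of the 48 members, 9 (18.8%) were higher and 34 (70.8%) lower in organoids than in MEF, where 39.2% of all genes tested were higher and 34.9% lower, and the median log2 fold change was -0.64 against 0.08 for all genes. In m-ICc12 against MEF, 8 (17.0%) were higher and 30 (63.8%) lower, where 31.1% of all genes were higher and 31.0% lower (median -0.59, all genes 0.01). Both comparisons share the MEF samples, and the organoid comparisons share the organoids. The MEF had no TNF library, whereas the sums of the other groups hold one.

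**Figure D2:**
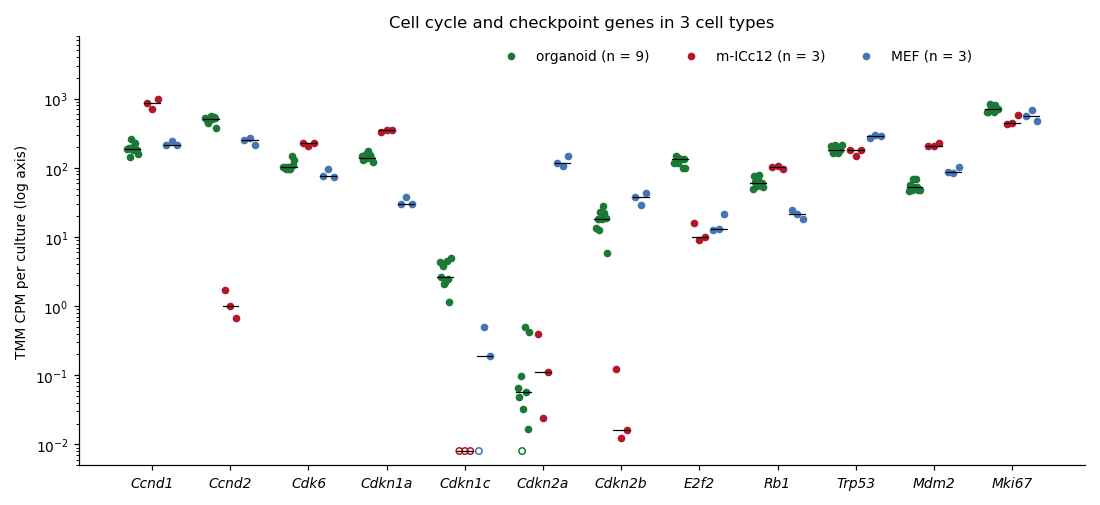
TMM-normalised level (CPM, log axis) of the named members in each of the 9 organoid, 3 m-ICc12 and 3 MEF cultures, 1 point per culture with both libraries of a culture summed. Bars are medians and open circles are values of 0. Ccnd2 lies at 374 to 561 CPM in organoids and at 0.663 to 1.70 CPM in m-ICc12, and Cdkn2a lies at 106 to 146 CPM in MEF and under 1 CPM elsewhere.

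Among the D-type cyclins, Ccnd2 ranged from 374 to 561 CPM (median 516) in the 9 organoid cultures, and stood at 1.70, 0.990 and 0.663 CPM in m-ICc12 and at 252, 269 and 212 CPM in MEF. The 3 groups did not overlap. Organoids exceeded m-ICc12 by 8.86 ± 0.28 on the log2 scale (SE, 465-fold, adjusted p = 3.5e-13, edgeR) and MEF by 1.03 ± 0.12 (2.04-fold, adjusted p = 1.3e-06). Krt19, an epithelial keratin of the organoids (1220 to 1490 CPM), was read at 3.57, 2.68 and 1.21 CPM in m-ICc12, in the same order over M1, M2 and M3 as Ccnd2. The summed enterocyte, goblet and enteroendocrine markers also had this order in m-ICc12, whereas the summed stem cell, Paneth and tuft markers did not. The part of such trace RNA in the residual Ccnd2 was not tested.

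Ccnd1 showed the opposite order, with 144 to 261 CPM (median 187) in organoids, 853, 706 and 994 CPM in m-ICc12 and 216, 248 and 217 CPM in MEF. Organoids were 4.39-fold below m-ICc12 (log2 fold change -2.13 ± 0.14, adjusted p = 1.7e-09), and the difference between organoids and MEF, whose ranges overlapped, did not pass (-0.24 ± 0.14, adjusted p = 0.14). m-ICc12 exceeded MEF 3.66-fold (1.87 ± 0.14, adjusted p = 3e-07). Per kilobase of exon, on which levels of different genes can be compared, organoids had a mean of 53.2 CPM/kb of Ccnd2, 41.1 of Ccnd1 and 7.34 of Ccnd3. On the opposite strand, 23.4% of the exonic bases of Ccnd1 overlap another gene. The same 3 cyclins were at 0.119, 181 and 6.26 CPM/kb in m-ICc12 and at 26.0, 48.3 and 11.6 CPM/kb in MEF. Ccnd3, the third D-type cyclin, was lower in organoids than in MEF (54.1 to 85.0 CPM against 99.0, 104 and 102 CPM, -0.66 ± 0.11, adjusted p = 6.2e-05) and did not differ detectably from m-ICc12 (0.23 ± 0.12, adjusted p = 0.11).

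The partner kinases followed Ccnd1 between the epithelial groups. Cdk6 ranged from 96.1 to 147 CPM (median 102) in organoids and was at 226, 210 and 231 CPM in m-ICc12 and 77.3, 96.1 and 73.7 CPM in MEF. It was 2.03-fold lower in organoids than in m-ICc12 (-1.02 ± 0.12, adjusted p = 1.1e-06), 1.32-fold higher than in MEF (0.40 ± 0.13, adjusted p = 0.014), and 2.64-fold higher in m-ICc12 than in MEF (1.40 ± 0.13, adjusted p = 1.7e-06). Cdk4 differed less, with 409 to 517 CPM in organoids, 721, 636 and 691 CPM in m-ICc12 and 604, 582 and 587 CPM in MEF, and was 1.48-fold below m-ICc12 (adjusted p = 6.6e-06), with 19.7% of its exonic bases overlapping Tspan31 on the opposite strand.

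Cyclin E and A bind Cdk2 at the start of DNA synthesis. The E-type cyclins were somewhat higher in organoids than in m-ICc12 (Ccne1 by 0.67 ± 0.17, adjusted p = 0.0026, and Ccne2 by 0.63 ± 0.20, adjusted p = 0.0098), as was Ccna2 (0.23 ± 0.08, adjusted p = 0.025), while Cdk2 did not pass (-0.06 ± 0.10, adjusted p = 0.62). In MEF, Ccne2 was at 121, 73.9 and 131 CPM, against 24.1 to 45.2 CPM (median 32.6) in organoids and 20.9, 23.8 and 18.5 CPM in m-ICc12. The MEF samples were above every sample of the other groups. Ccne2 was 3.35-fold lower in organoids than in MEF (-1.74 ± 0.19, adjusted p = 4.4e-07) and 5.26-fold lower in m-ICc12 than in MEF (-2.40 ± 0.20, adjusted p = 6.1e-07), and 17.4% of its exonic bases overlap Ints8 on the opposite strand.

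The CDK inhibitors included some of the largest fold changes. Cdkn2a encodes p16, an inhibitor of Cdk4 and Cdk6, and Arf, which blocks Mdm2. Its counts summed to 67 over all organoid libraries, to 25 over all m-ICc12 libraries and to 13213 over the MEF, that is 0 to 0.504 CPM in organoids, 0.4, 0.0244 and 0.113 CPM in m-ICc12 and 118, 106 and 146 CPM in MEF. It was lower than in MEF by 9.78 ± 0.52 on the log2 scale in organoids (adjusted p = 1e-10) and by 9.78 ± 0.43 in m-ICc12 (adjusted p = 1.7e-09), and it was below the count filter between organoids and m-ICc12. Counts per gene do not separate the transcripts that leave the p16 and Arf starts printed above.

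Cdkn2b, its neighbour on chromosome 4, encodes p15, which also inhibits Cdk4 and Cdk6. It was read at 5.85 to 28.1 CPM (median 17.9) in organoids, at 0.125, 0.0122 and 0.0162 CPM in m-ICc12, where it summed to 7 counts, and at 38.2, 28.8 and 43.9 CPM in MEF. The 3 groups were fully separated. Organoids exceeded m-ICc12 by 8.69 ± 0.72 (adjusted p = 2.9e-08) and lay below MEF by a log2 fold change of -1.07 ± 0.31 (adjusted p = 0.0051), and m-ICc12 lay below MEF by -9.82 ± 0.49 (adjusted p = 4.4e-09). Organoids thus had Cdkn2b and only traces of Cdkn2a, MEF had both, and m-ICc12 had neither above trace level.

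Cdkn1a encodes p21, a p53 target that inhibits CDKs, and stepped down from m-ICc12 to organoids to MEF. Its level was 332, 356 and 349 CPM in m-ICc12, 123 to 173 CPM (median 139) in organoids and 30.2, 37.2 and 29.5 CPM in MEF, with no overlap. Organoids were 2.39-fold below m-ICc12 (-1.26 ± 0.09, adjusted p = 4.7e-09) and 4.45-fold above MEF (2.15 ± 0.12, adjusted p = 2.1e-10), and m-ICc12 was 10.4-fold above MEF (3.38 ± 0.13, adjusted p = 5.7e-10).

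Cdkn1c, which encodes the inhibitor p57, was a low-level organoid gene. It was read at 1.15 to 4.90 CPM (median 2.59) in organoids, at 0 in all m-ICc12 samples, and in MEF with 0, 20 and 5 counts in the 3 samples. Against a floor of 3 counts over the m-ICc12 group (0.075 CPM), organoids were at least 41.5-fold higher. They exceeded MEF by 3.75 ± 0.94 (adjusted p = 0.002), and 30.7% of the exonic bases of Cdkn1c overlap another gene on the opposite strand. The levels in the 2 libraries of organoid Z911 were 0.0383 CPM (labelled untreated) and 7.01 CPM (labelled TNF), wider apart than in any other organoid culture. Of the other inhibitors, Cdkn2c (p18) was at 24.5 to 31.6 CPM in organoids, 38.0, 36.8 and 36.4 CPM in m-ICc12 and 49.4, 43.5 and 48.9 CPM in MEF, and Cdkn1b (p27) was at 67.0 to 84.4, 77.1 to 91 and 56.9 to 65.8 CPM.

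Among the RB family and E2F factors, the activator E2f2 was an organoid gene and Rb1 was highest in m-ICc12. E2f2 stood at 99.6 to 147 CPM (median 136) in organoids, at 16.1, 8.90 and 10.1 CPM in m-ICc12 and at 12.6, 12.9 and 21.8 CPM in MEF. Organoids exceeded m-ICc12 10.8-fold (3.43 ± 0.20, adjusted p = 4.6e-10) and MEF 7.98-fold (3.00 ± 0.20, adjusted p = 1.3e-09), with m-ICc12 and MEF overlapping (-0.46 ± 0.30, adjusted p = 0.21). E2f1, its close relative, was at 23.1 to 38.6 CPM in organoids and 31.4 to 33.5 CPM in m-ICc12 (-0.03 ± 0.14, adjusted p = 0.88), and at 54.8 to 61.2 CPM in MEF.

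Rb1, the pocket protein that holds E2F factors in check, was at 49.2 to 77.9 CPM (median 61.0) in organoids, 103, 107 and 97.3 CPM in m-ICc12 and 24.6, 21.6 and 18.4 CPM in MEF. Organoids were 1.64-fold below m-ICc12 (-0.72 ± 0.13, adjusted p = 0.00012) and 2.87-fold above MEF (1.52 ± 0.16, adjusted p = 3.9e-07), and m-ICc12 was 4.63-fold above MEF (2.21 ± 0.14, adjusted p = 5.5e-08). Its relative Rbl1 (p107) was likewise highest in m-ICc12 (120, 133 and 137 CPM, with 50.5 to 85.9 CPM in organoids and 85.1 to 96.5 CPM in MEF). The repressor E2f7 rose in the order organoid (17.7 to 26.9 CPM), m-ICc12 (34.1, 29.8 and 38.8 CPM) and MEF (88.1, 83.6 and 94.6 CPM), and was 4.31-fold lower in organoids than in MEF (-2.11 ± 0.13, adjusted p = 7.9e-10). The repressor E2f8 went the other way and was higher in organoids than in m-ICc12 (0.45 ± 0.14, adjusted p = 0.0083) and MEF (0.62 ± 0.10, adjusted p = 4.2e-05).

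Trp53 itself separated the epithelial groups only from MEF, whereas its antagonist Mdm2 separated all 3. Trp53 was at 163 to 212 CPM (median 180) in organoids, 182, 149 and 178 CPM in m-ICc12 and 274, 294 and 289 CPM in MEF. The epithelial groups overlapped (0.14 ± 0.10, adjusted p = 0.23), and both were below MEF (organoids by -0.62 ± 0.09, adjusted p = 1.5e-05, and m-ICc12 by -0.78 ± 0.12, adjusted p = 0.00011). Mdm2 was at 46.7 to 69.3 CPM (median 52.3) in organoids, 204, 208 and 231 CPM in m-ICc12 and 87.1, 84.8 and 102 CPM in MEF. It was 3.93-fold lower in organoids than in m-ICc12 (-1.98 ± 0.12, adjusted p = 5.8e-10) and 1.69-fold lower than in MEF (-0.75 ± 0.13, adjusted p = 7.9e-05), and 2.30-fold higher in m-ICc12 than in MEF (1.20 ± 0.12, adjusted p = 3e-06).

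A list of 20 known p53 target genes outside the members moved with Cdkn1a and Mdm2 between the epithelial groups. In organoids against m-ICc12, 15 of the 20 were lower and 2 higher (all genes 34.0% lower and 36.6% higher), with a median log2 fold change of -0.79 (all genes 0.04). The lower ones included Plk2 (-3.31 ± 0.16, adjusted p = 5.6e-11), Zmat3 (-1.45 ± 0.11, adjusted p = 6.2e-09), Ccng1 (-1.32 ± 0.10, adjusted p = 8.5e-09) and Trp53inp1 (-1.57 ± 0.16, adjusted p = 2.5e-07), and the 2 higher ones were Sesn1 and Perp. Against MEF, organoids had 11 higher and 3 lower of 20 (all genes 39.2% higher and 34.9% lower, list median 0.59), led by Btg2 (3.5 ± 0.12, adjusted p = 4.9e-13) and Perp (4.89 ± 0.17, adjusted p = 6.7e-13), with Plk2 (-4.14 ± 0.16, adjusted p = 2e-12) and Tnfrsf10b (-1.71 ± 0.13, adjusted p = 1e-08) lower. m-ICc12 against MEF had 16 higher and 2 lower of 20 (all genes 31.1% higher and 31.0% lower, list median 1.26), led by Perp (4.53 ± 0.21, adjusted p = 3e-09), Trp53inp1 (3.20 ± 0.16, adjusted p = 4e-09), Btg2 (3.81 ± 0.22, adjusted p = 1.6e-08) and Pmaip1 (3.20 ± 0.18, adjusted p = 1.9e-08). Perp is also a desmosome gene of epithelia, and whether p53 had a part in these values was not tested.

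The licensing group holds the subunits of the Mcm2-7 helicase, Cdc6 and Cdt1, which load it onto replication origins, and Gmnn. Its summed level was highest in MEF. Of the 9 genes, 8 were lower in organoids than in MEF (34.9% of all genes) and 8 were lower in m-ICc12 than in MEF (31.0% of all genes), with no licensing gene called higher in either comparison. In organoids against m-ICc12, 5 were lower (34.0% of all genes) and 1 was higher (36.6% of all genes). Mcm4 was at 86.5 to 134 CPM (median 122) in organoids, 137, 164 and 201 CPM in m-ICc12 and 369, 376 and 370 CPM in MEF, 3.21-fold lower in organoids than in MEF (-1.68 ± 0.10, adjusted p = 7.2e-10). Mcm6, whose promoter is printed above, differed least of the helicase subunits from MEF (172 to 241 CPM in organoids, 244, 248 and 303 CPM in m-ICc12 and 277, 264 and 278 CPM in MEF, organoids against MEF -0.36 ± 0.09, adjusted p = 0.0026). Cdc6, which loads the helicase, was 2.64-fold lower in organoids than in MEF (-1.40 ± 0.16, adjusted p = 8.9e-07). Its partner Cdt1 was the exception, with -0.03 ± 0.13 against MEF (adjusted p = 0.82) and 0.45 ± 0.16 against m-ICc12 (adjusted p = 0.02).

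Of the 3 genes of replication and nucleotide supply, Rrm2, the regulated subunit of ribonucleotide reductase, varied most. It was at 114 to 159 CPM (median 124) in organoids, 385, 408 and 460 CPM in m-ICc12 and 235, 222 and 247 CPM in MEF, with no overlap. Organoids were 3.29-fold below m-ICc12 (-1.72 ± 0.09, adjusted p = 1e-10) and 1.86-fold below MEF (-0.89 ± 0.09, adjusted p = 1.9e-07). Pcna, the sliding clamp of DNA polymerase, did not differ detectably between organoids and m-ICc12 (218 to 303 CPM against 266, 255 and 319 CPM, -0.09 ± 0.10, adjusted p = 0.44), and neither did thymidylate synthase Tyms (-0.14 ± 0.13, adjusted p = 0.34).

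The 13 mitotic genes set organoids and MEF apart more evenly than organoids and m-ICc12. Against MEF, 10 were lower in organoids (34.9% of all genes) and 1, Mki67, was higher (39.2% of all genes). Against m-ICc12, 6 were higher (Mki67, Ccnb2, Bub1b, Cdc20, Birc5 and Fbxo5, against 36.6% of all genes) and 2 were lower (Cdk1 and Aurka, against 34.0% of all genes). The median log2 fold change of the 13 against m-ICc12 was 0.05, and that of all genes 0.04. Mki67, the source of the proliferation marker Ki-67, was at 631 to 844 CPM (median 711) in organoids, 426, 442 and 583 CPM in m-ICc12 and 566, 689 and 481 CPM in MEF. Organoids exceeded m-ICc12 1.49-fold (0.58 ± 0.12, adjusted p = 0.00038) and MEF 1.24-fold (0.31 ± 0.12, adjusted p = 0.025), the latter with overlapping ranges. m-ICc12 and MEF overlapped too (-0.29 ± 0.16, adjusted p = 0.14).

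Cdk1, the mitotic kinase, was lowest in organoids. It was at 124 to 170 CPM (median 139) in organoids, 258, 247 and 272 CPM in m-ICc12 and 328, 275 and 333 CPM in MEF, and organoids were 1.80-fold below m-ICc12 (-0.85 ± 0.10, adjusted p = 1.7e-06) and 2.18-fold below MEF (-1.12 ± 0.10, adjusted p = 7e-08). The spindle checkpoint kinase Bub1 was at 49.9 to 83 CPM (median 61.9) in organoids, 65.0, 67.4 and 91.6 CPM in m-ICc12 and 174, 160 and 184 CPM in MEF, 2.78-fold lower in organoids than in MEF (-1.47 ± 0.11, adjusted p = 6e-09). Fbxo5, an inhibitor of the anaphase-promoting complex, was lowest in m-ICc12 (23.2, 18.7 and 24.5 CPM), with 30.3 to 41.2 CPM in organoids and 61.5, 63.3 and 74.3 CPM in MEF. It was 1.67-fold higher in organoids than in m-ICc12 (0.74 ± 0.13, adjusted p = 0.00013) and 3.07-fold lower in m-ICc12 than in MEF (-1.62 ± 0.16, adjusted p = 2.9e-06). The Aurora kinase Aurkb and Plk1 did not differ detectably between organoids and m-ICc12 (both 0.05 on the log2 scale, adjusted p = 0.68 and 0.79).

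**Figure D3:**
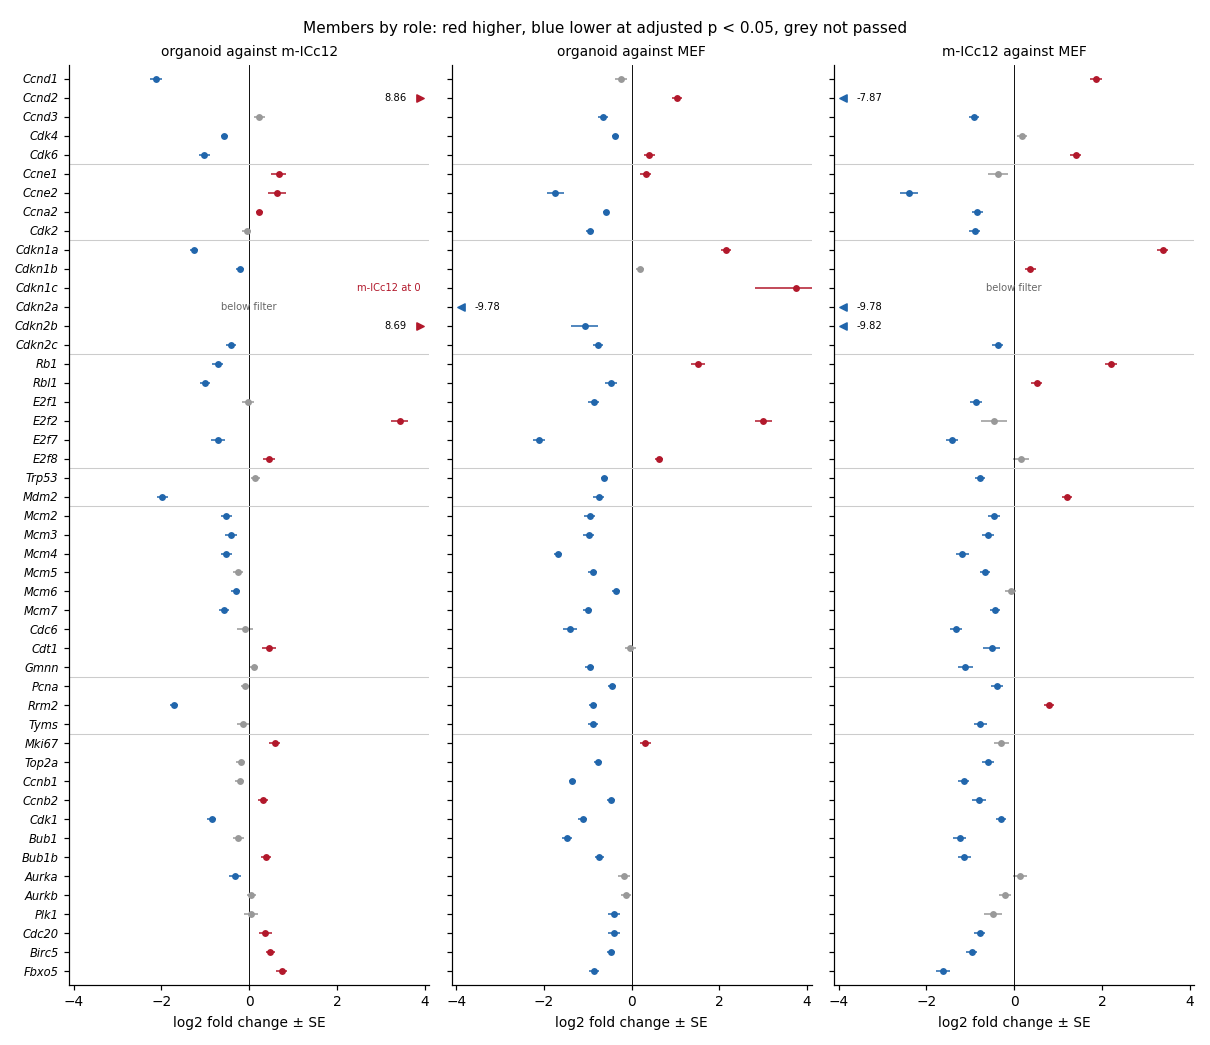
Log2 fold change with its SE for each member, ordered by role, in organoid against m-ICc12, organoid against MEF and m-ICc12 against MEF. Red points were higher and blue points lower at an adjusted p under 0.05, grey points did not pass, and arrows mark values beyond the axis. The licensing genes lie at or left of 0 in both comparisons with MEF (8 of 9 passed in each), and Ccnd2 and Cdkn2b lie far to the right in organoid against m-ICc12 (8.86 and 8.69).

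Further genes of the same pathways were mostly lower in organoids than in MEF, where 39.2% of all genes were higher and 34.9% lower (31.1% and 31.0% for m-ICc12 against MEF). Of 25 other mitosis and spindle checkpoint genes, 1 was higher and 19 lower in organoids than in MEF, among them the transcription factor Foxm1 (-1.29 ± 0.07, adjusted p = 9.2e-11), the CDK subunit Cks1b (-1.91 ± 0.10, adjusted p = 1.3e-10) and separase Espl1 (-1.36 ± 0.09, adjusted p = 8.4e-10), and 1 was higher and 19 lower in m-ICc12 than in MEF. Of 25 DNA replication genes, 0 were higher and 21 lower in organoids than in MEF, led by Dbf4 (-1.10 ± 0.08, adjusted p = 3.7e-09) and Pole (-1.11 ± 0.09, adjusted p = 2.3e-08), and 1 was higher and 21 lower in m-ICc12 than in MEF. Of 22 genes of G1/S control, 4 were higher and 12 lower in organoids than in MEF, with Mybl2 (-1.51 ± 0.10, adjusted p = 8.1e-10) and the ubiquitin ligase subunit Skp2 (-1.35 ± 0.09, adjusted p = 1.2e-09) first. Of 15 DNA damage checkpoint genes, 2 were higher and 10 lower, led by Topbp1 (-1.15 ± 0.09, adjusted p = 1.1e-08) and Brca1 (-1.26 ± 0.11, adjusted p = 3e-08).

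Between organoids and m-ICc12 the same lists were mixed, with shares to be read against 36.6% of all genes higher and 34.0% lower. The mitosis list had 6 higher and 11 lower of 25, with the phosphatase Cdc25b higher (1.45 ± 0.12, adjusted p = 2.7e-08) and securin Pttg1 lower (-2.04 ± 0.19, adjusted p = 1.4e-07). The replication list had 6 higher and 9 lower of 25, with the flap endonuclease Fen1 higher (0.90 ± 0.11, adjusted p = 1.6e-06) and the polymerase subunit Pola2 lower (-0.70 ± 0.10, adjusted p = 1.8e-05). The G1/S list had 5 higher and 7 lower of 22, with the phosphatase Cdc25a higher (1.06 ± 0.10, adjusted p = 2e-07), and the DNA damage list had 1 higher and 4 lower of 15.

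The next question was how far the 9 organoid cultures differed among themselves. The coefficient of variation of a member over the 9 cultures had a median of 12.2% (4.81 to 41.0%, 47 members), against 16.6% over 12471 genes above background. Members and all genes were not matched for level, on which this spread and the power of the test between cultures depend. Cdkn2b and Cdkn1c varied most, with 4.81 and 4.25 times between the lowest and the highest culture. With both libraries of a culture as the measure of noise and the treatment label as a covariate, 13 of 47 members (27.7%) differed between cultures, against 12.0% of all genes tested. They were Ccnd2 (adjusted p = 0.00011), Ccnd1 (0.00013), Mki67 (0.0016), Cdc20 (0.0047), Cdkn2b (0.0077), Mcm3 (0.0085), Cdk6 (0.016), E2f2 (0.024), Mcm5 (0.026), Top2a (0.027), Mcm4 (0.031), Aurka (0.033) and Mcm2 (0.038, all edgeR). Cdkn1a (0.17) and Mdm2 (0.21) did not pass.

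**Figure D4:**
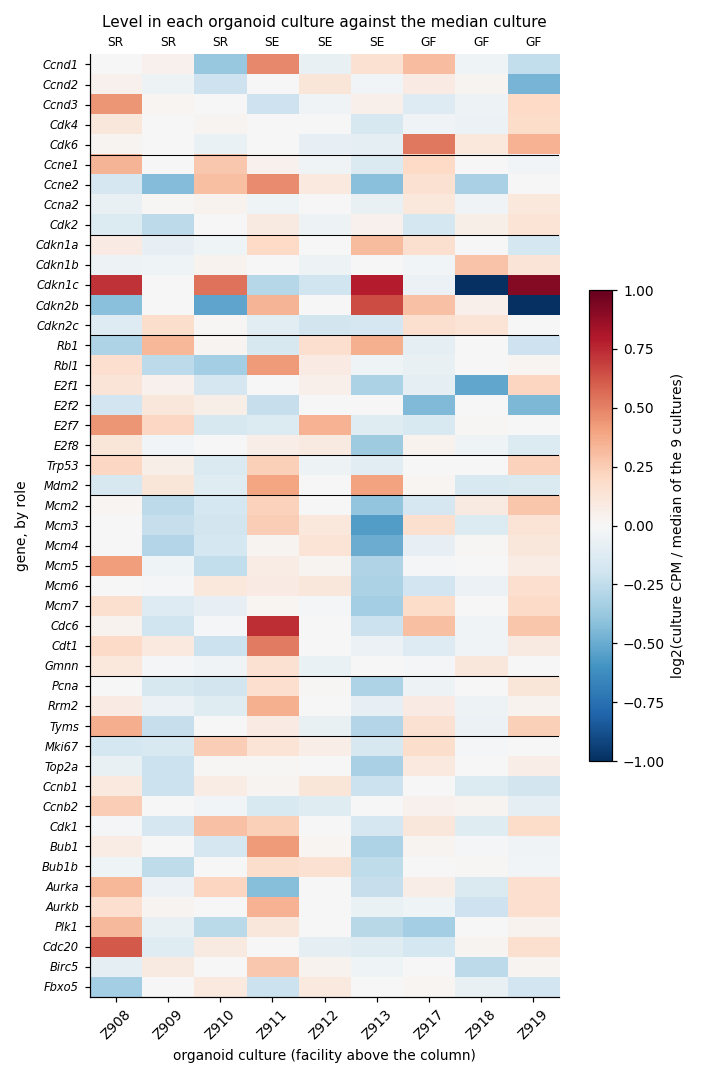
Level of the members in each of the 9 organoid cultures relative to the median of the 9 (log2 colour scale, red higher, blue lower), grouped by role and by facility and without Cdkn2a. Z913 is the lowest culture for 7 of the 9 licensing genes, and Z911 the highest for 4 of them, with no such count over all genes.

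Ccnd1 ran from 144 CPM in Z910 to 261 CPM in Z911, where both libraries were high (260 and 255 CPM). Ccnd2 was lowest in Z919 (288 and 424 CPM) and Cdkn2b was lowest in Z919 (7.91 and 4.48 CPM) and highest in Z913 (33.6 and 22.6 CPM, in each case labelled untreated and labelled TNF). Culture Z913 was the lowest of the 9 for 16 of the 48 members and for 7 of the 9 licensing genes, which summed to 898 CPM in Z913 and to 1270 CPM in Z911, the highest. How often Z913 was the lowest over all genes was not counted, so these counts have no background share. Enterocyte markers summed to 7020 CPM in Z913, 3420 CPM in Z911, 7220 CPM in Z918 and 2220 CPM in Z919, and their part in these differences was not tested. Both libraries of a culture come from the same mouse, so mouse and culture cannot be told apart. Without Z913, 7 members passed instead of 13, with Mcm3 and Top2a among those lost. The calls of Ccnd2 (without Z919), Cdk6 (without Z917), Cdkn2b (without Z913 or Z919) and Cdc20 (without Z908) also rested on single cultures.

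Donor microbiota was the environmental variable of the design. In germ-free against SPF organoids (3 against 6 cultures), 0 of 47 members passed, against 0.0540% of all genes tested. Only 1 member had an unadjusted p under 0.05 (4.1% of all genes did), and DESeq2 also called 0. That member was Cdk6, higher by 0.37 ± 0.10 (adjusted p = 0.83). Between the SR and SE facilities (3 against 3 cultures), 0 of 47 passed, against 0.00775% of all genes. Of the members, 2 had an unadjusted p under 0.05 (4.03% of all genes did), and DESeq2 called 0. These were Cdkn2b (-0.66 ± 0.24, adjusted p = 1) and Aurka (0.36, adjusted p = 1).

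The last question was the response to TNF. In the organoid libraries, 2 of 47 members passed between the labels, against 1.39% of all genes tested. Ccnd2 was at 288 to 506 CPM (median 429) in the libraries labelled untreated and at 424 to 620 CPM (median 591) in those labelled TNF, higher in 9 of 9 pairs although the ranges overlap (0.41 ± 0.09, adjusted p = 0.016). Trp53 was at 173 to 267 CPM (median 201) and at 136 to 210 CPM (median 155), lower under the TNF label in 8 of 9 pairs with the exception of Z908 (-0.38 ± 0.09, adjusted p = 0.017). Both also passed with the culture as a block. Ccnd2 no longer passed without Z909, Z913 or Z918 (adjusted p up to 0.063), nor did Trp53 without Z909, Z911 or Z912 (up to 0.088). Mki67 (-0.09 ± 0.07, adjusted p = 0.84) and Cdk4 (-0.14 ± 0.06, adjusted p = 0.5) were also lower in 9 of 9 pairs but did not pass, and neither did Ccnd1 (0.03), Mdm2 (-0.14) or Cdkn1a (-0.05). None of the 5 pathway lists had a gene that passed. Of the 6 stem cell markers, Olfm4 (mean 891 CPM labelled untreated and 252 CPM labelled TNF, adjusted p = 0.00024) and Ascl2 (28.5 and 8.82 CPM, adjusted p = 3.5e-05) were lower under the TNF label in 9 of 9 pairs, while Lgr5 did not pass (0.06 ± 0.20, adjusted p = 0.98). All 6 Paneth markers had a negative log2 fold change (median -0.43) and none passed. The part of cell composition in the values of Ccnd2 and Trp53 was not tested.

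**Figure D5:**
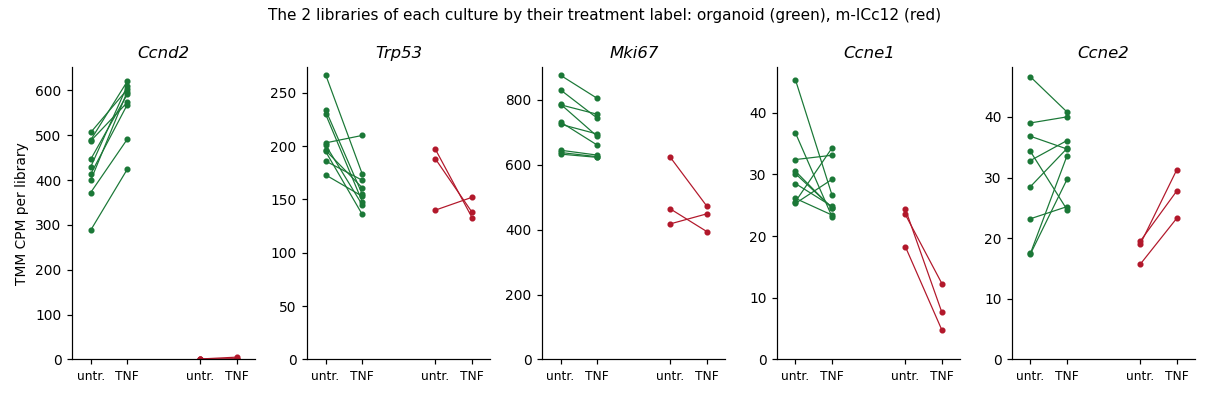
Level (CPM) of named members in the paired libraries of each organoid and m-ICc12 culture, labelled untreated and labelled TNF, with a line joining the libraries of a culture. Ccnd2 is higher under the TNF label in 9 of 9 organoid cultures, Trp53 lower in 8 of 9, and Ccne1 lower in 3 of 3 m-ICc12 replicates.

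In m-ICc12, 0 of 45 members passed between the labels (3 against 3 libraries), against 0.110% of all genes tested. Of the members, 4 had an unadjusted p under 0.05 (4.69% of all genes did), and DESeq2 called 0. Ccne1, the member with the smallest p, went from 24.4, 18.3 and 23.5 CPM in M1 to M3 labelled untreated to 7.62, 4.76 and 12.3 CPM labelled TNF, without overlap (-1.41 ± 0.36, adjusted p = 0.4). Ccne2, its paralogue, went from 19.0, 19.5 and 15.7 CPM to 31.3, 27.8 and 23.3 CPM (0.62 ± 0.25, adjusted p = 1). Ccnd2 had the largest fitted change, 1.86 ± 1.06 (adjusted p = 1), at levels of a few CPM or less.

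The label effect was then compared between m-ICc12 and organoids in 1 fit over 24 libraries. None of the 47 members passed, that is 0 against 0.159% of all genes tested. Of the members, 5 had an unadjusted p under 0.05 (6.5% of all genes did), and DESeq2 called 0. The difference was -1.22 ± 0.32 for Ccne1 (adjusted p = 0.17) and 1.09 ± 0.41 for Ccnd2 (adjusted p = 0.56), the latter resting on low levels of Ccnd2 in m-ICc12, of 1.10, 0.543 and 0.453 CPM labelled untreated and 5.19, 1.49 and 1.05 CPM labelled TNF. With the culture as a block, both passed (Ccne1 -1.32 ± 0.31, adjusted p = 0.049, and Ccnd2 1.26 ± 0.21, adjusted p = 0.0052). That block also pairs the m-ICc12 libraries, which hardly deviated together within the 3 pairs (mean r = 0.0306). Higher under the TNF label in m-ICc12 were also 6 of 6 enterocyte, 4 of 4 goblet and 1 of 4 stem cell markers tested. None of these markers passed, and the part of trace RNA in the Ccnd2 difference was not tested. Leaving out 1 m-ICc12 replicate moved the adjusted p of Ccne1 without the block to 0.54 (replicate 1), 0.29 (replicate 2) or 0.031 (replicate 3).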

How the data were processed

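The authors sequenced poly(A) RNA with a TruSeq kit (called stranded in the labels and not in the study's methods), trimmed reads with Trimmomatic, aligned them with STAR to GRCm38 and deposited 1 table of raw counts per gene for each of the 27 libraries. The submitters' processing notes name STAR 2.5.4b and featureCounts, the study's methods another STAR release and GenomicRanges. Whether strand was used in counting is not given in the sources used here, and 17 of the 48 members share exonic bases with another gene.

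A gene entered a test when 50% or more of the samples in any 1 group reached 10 counts. Tests were run with edgeR 4.0.16 (R 4.3.3; TMM, quasi-likelihood F test, Benjamini-Hochberg over all genes tested, threshold 0.05). Both libraries of a culture were summed for comparisons of cell types and facilities. Fold changes are log2 with their SE, from the first group over the second or from labelled TNF over labelled untreated. CPM are TMM-scaled. DESeq2 1.42.0, other scalings, other filters, the study's thresholds and the omission of each culture were alternatives. The test was checked on simulated counts.

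The rule for the members uses no measured value, but the members and lists were chosen with earlier results of these data known. Members given in full are, per comparison, the 5 with the largest called change in each direction plus Mki67, Ccnd1, Ccnd2, Cdk6, Cdkn1a, Cdkn1c, Cdkn2a, Cdkn2b, Trp53 and Mdm2 (outside the cell types Cdkn1a, Mdm2, Ccnd1 and Mki67), and from each pathway list up to 4 genes with the smallest p. Other members are named for their role. The libraries of an organoid culture share a mouse and deviated together (mean r = 0.172 over all genes tested, 0.0827 to 0.311 over the 9 cultures, against -0.0201 for other pairs), so the culture pairs them. For the 3 m-ICc12 pairs the mean r was 0.0306 (-0.00638 to 0.0907), against -0.0151 for other pairs. The study's methods do not say whether a block was used. The fits reported first have none, and the blocked value is given where it changes a call.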

Additional observations from a re-analysis of the deposited data

Results flagged for a closer look

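Among the 9 organoid cultures, 7 of the 48 members had 1 culture far from the others, by a gap to its nearest neighbour, as a share of the whole range, above Dixon's critical value. Chance flags about 1 in 20 groups if genes vary independently, which members read in the same cultures need not do. The rule was applied to the members only, so the count has no share over all genes beside it. All 7 lay on the high side and in 2 cultures. In Z911 these were the licensing factors Cdc6 (49.9 CPM, the other 8 cultures 25.8 to 36.8 CPM) and Cdt1 (97.1 CPM, others 58.6 to 77.4 CPM), Rrm2 (159 CPM, others 114 to 131 CPM) and Bub1 (83 CPM, others 49.9 to 65.2 CPM). In Z908 they were the helicase subunit Mcm5 (240 CPM, others 146 to 189 CPM), the mitotic cyclin Ccnb2 (101 CPM, others 76.7 to 88.0 CPM) and Cdc20, an activator of the anaphase-promoting complex (171 CPM, others 99.3 to 125 CPM).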

How the results depend on the processing

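The count of called members was within 1.5 times its main value under most alternatives, and no result changed direction. Of the members called, 20 of 33 (organoid against m-ICc12), 32 of 43 (organoid against MEF) and 31 of 38 (m-ICc12 against MEF) passed under every alternative run for that comparison (20, 19 and 15), all with the same sign. Between organoid cultures, only 2 of the 13 members called passed under all 14 alternatives. For the label in organoids, 0 of 2 passed under all 15. With the study's thresholds (p under 0.05 and a log2 change of at least 0.5), 21 members passed in organoid against m-ICc12 (8 higher). The label in organoids gave 0, the label in m-ICc12 3, the difference of the label effects 3 and SR against SE 1 (Cdkn2b). At any fold change, 34 of 47, 3 of 47, 4 of 45, 5 of 47 and 2 of 47 members had an unadjusted p under 0.05, in that order. Of all genes, 72.7%, 8.86%, 4.69%, 6.5% and 4.03% did. The counts at the study's thresholds have no share of all genes beside them. The test between organoid cultures gives no single fold change. There, 26 of 47 members had an unadjusted p under 0.05, against 23.8% of all genes. Only the libraries labelled untreated gave 9 higher in organoid against m-ICc12. Between organoid cultures, DESeq2 called 21 members (2556 of all genes, main 1448) and the fit with no treatment term 4 (829 of all genes). Leaving out 1 culture in turn gave 9 to 15 higher in organoid against m-ICc12, 0 to 2 for the label in organoids, 0 to 1 for the difference of the label effects and 7 to 14 between cultures.

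With the culture as a replicate block, the label in organoids gave the same count of members, 2 (397 of all genes, main 168), the label in m-ICc12 gave 0, and the difference of the label effects gave 2. The m-ICc12 and MEF samples share only the numbers 1 to 3 (mean r of same-numbered samples -0.00805). With that number as a replicate block, 36 members instead of 38 were called, 35 of them the same genes. Without the 2 libraries high in Lars2, an alternative chosen after seeing the data, 1 member passed for the difference of the label effects (Ccne1, adjusted p = 0.014, whereas Ccnd2 fell to 0.73 ± 0.38, adjusted p = 0.93). This leaves 1 m-ICc12 library labelled TNF, which is assumed to vary like the other groups, and it is not taken as support. The median spread of the members over cultures was 0.73 of that of all genes by the coefficient of variation and 0.75 by the SD of log2 CPM, without matching for level. At 3 samples a group small changes were not detectable, and low genes such as Cdkn1c rest on few counts.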

Other observations

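The genes on either side of the Cdkn2a and Cdkn2b locus on chromosome 4 were read after the values of both inhibitors had been seen. Mtap, an enzyme of methionine salvage whose gene lies on the Cdkn2a side, was at 39.3 to 69.6 CPM (median 49.9) in organoids, 113 to 144 CPM in m-ICc12 and 230 to 248 CPM in MEF. In m-ICc12 it gave 23971 counts, against 25 for Cdkn2a and 7 for Cdkn2b. Dmrta1, on the Cdkn2b side, was listed at 0 in every organoid and m-ICc12 culture and reached 0.419 CPM in MEF, so it gives no measure of that flank.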
